A study of Arabidopsis thaliana with 42 samples.

Results

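ATG8D, ATG8E, ATG8F and ATG8H are 4 of the 9 Arabidopsis genes for the autophagy protein ATG8 that had a probe set on the array, out of 13356 annotated genes and 22810 probe sets in all. They were chosen by gene name, with earlier results of these data known. Each was measured by 1 probe set annotated to that gene alone. ATG8D (AT2G05630, probe set 265510_at) and ATG8E (AT2G45170, 266106_at) lie on chromosome 2, ATG8H (AT3G06420, 258880_at) lies on chromosome 3, and ATG8F (AT4G16520, 245391_at) lies on chromosome 4. No sequence of these genes was used here.

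Autophagy is the pathway by which a cell wraps part of its cytoplasm in a membrane vesicle, the autophagosome, and delivers it to the vacuole for breakdown and reuse. ATG8 is a small protein with the fold of ubiquitin. The protease ATG4 trims its end, ATG7 and ATG3 act on it like the activating and conjugating enzymes of ubiquitin, and it ends joined to a lipid in the growing autophagosome membrane, where it also binds the receptors that bring cargo. Plants carry a family of such genes where yeast has a lone one, and plant autophagy is best known for recycling under starvation and in ageing leaves.

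The study profiled shoots and stems of Arabidopsis thaliana with Affymetrix arrays, 42 in all, as 14 groups of 3. Soil-grown plants were kept under continuous light, at 23 °C and a relative humidity of 65%. The 7 mutant groups were inflorescence apices, taken after bolting, of ufo-1, ag-12, ap3-6, ap2-6, ap1-15, lfy-12 and clv3-7, each in the Col-0 background. These alleles hit regulators of meristem size, of floral identity or of floral organ identity. The 7 Col-0 groups were the hypocotyl, the second internode of the stem, the first node, the vegetative apex with young leaves, the vegetative apex without them, the transition apex before bolting and the inflorescence apex after bolting. The node samples also held the start of the side shoot and the base of a cauline leaf, and the Col-0 inflorescence apices held young flowers. Plant ages are not given. No label states whether the replicates of a group were different plants. The p-values therefore cover no more than the spread among these arrays, which may be technical.

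Values are MAS5 signals, a linear brightness per probe set that the authors deposited scaled alike on every array. Tests were made with limma on log2(signal + 8.01), where the added offset keeps signals near background from dominating. Calls were made at a threshold of 0.05 on the adjusted p, and each log2 change below is a difference on that scale with its standard error. On the 6 node and Col-0 inflorescence apex arrays the added dap control transcript read 7.61 to 8.35 on the log2 scale, against 3.04 to 3.45 on the other 36 arrays, so these 6 stand apart in preparation. Their titles also carry an added digit that no label explains. Of the 7 mutated genes only CLV3 and UFO had an annotated probe set. CLV3 stayed between 0.470 and 16.2 units on all arrays, and UFO averaged 18.3 ± 2.7 in ufo-1 and 27.7 ± 1.4 in Col-0 inflorescence apices (SD, n = 3 each), so neither probe set checks the labels. IRX15, a gene of xylan synthesis in secondary walls, averaged 933 in the internode, 409 in the node, 29.4 in the hypocotyl and at most 7.90 in each other group. None of the 4 meristem and 4 phloem marker genes listed had an annotated probe set, so the apex labels were not checked by such genes. In whole organs, a change in the number of cells of a type and a change in RNA per cell cannot be told apart.

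All 4 genes had their high levels in the bolting stem. ATG8E, ATG8F and ATG8H were highest in the internode, where their 3 arrays lay above every array of the other 13 groups. ATG8D was as high in the node as in the internode, and the 3 arrays of each of those groups lay above all arrays of the other 12. Between the highest and the lowest group mean, the ratio was 2.54 for ATG8D, 4.87 for ATG8F and 6.77 for ATG8E, and it was at least 9.94 for ATG8H, whose lowest groups had only a bound.

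**Figure D1:**
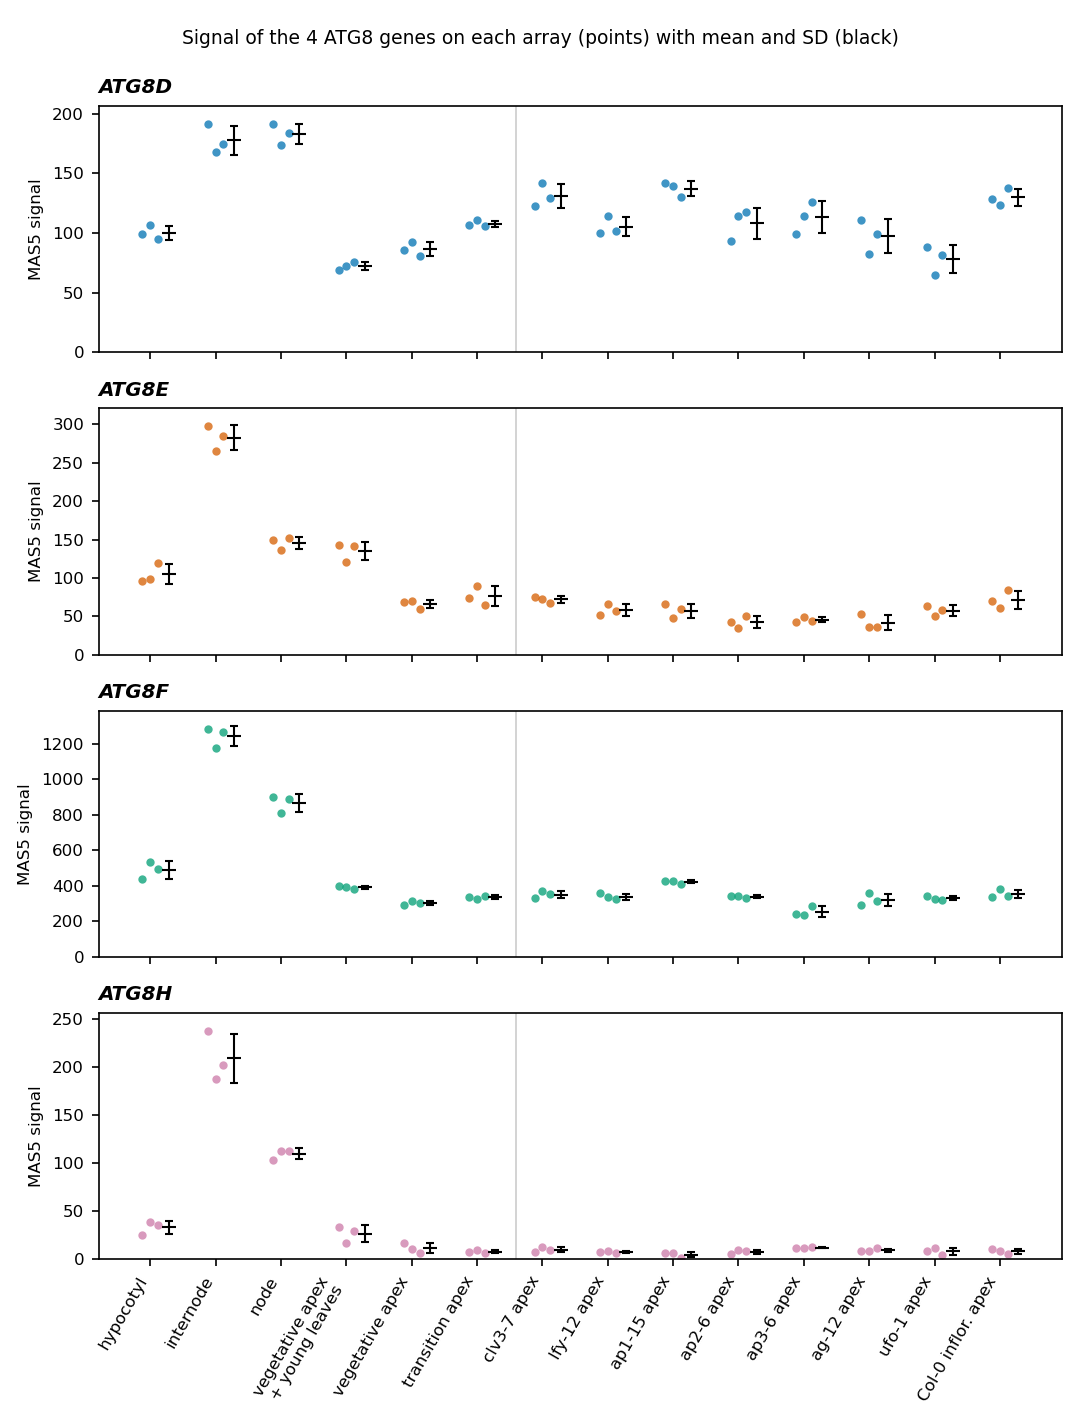
MAS5 signal (y axis, linear from 0, a scale of its own per gene) of ATG8D, ATG8E, ATG8F and ATG8H on every array of the 14 groups (x axis), with 3 points per group and the mean ± SD in black; the grey line parts the other groups from the mutant and Col-0 inflorescence apices. The internode points of ATG8E, ATG8F and ATG8H stand above all others, while those of ATG8D overlap with the node.

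The order of groups differed among the genes below the stem. ATG8D averaged 183 ± 8.6 in the node and 178 ± 12 in the internode (SD, n = 3 each), followed without overlap by ap1-15 at 137 ± 6.4, and it ended at 78.0 ± 11.9 in ufo-1 and 72.2 ± 3.2 in the vegetative apex with young leaves. From ap1-15 down to that lowest group, each ATG8D neighbour in the order overlapped with the next. ATG8E had the vegetative apex with young leaves at 135 ± 12, overlapping with the node at 145 ± 8.4, and then the hypocotyl at 105 ± 13. Below the hypocotyl, where ATG8E ran down to 41.8 ± 9.8 in ag-12, neighbouring groups overlapped throughout.

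ATG8F separated more groups. Its internode mean was 1244 ± 57, its node mean 867 ± 49, its hypocotyl mean 490.1 ± 48.8 and its ap1-15 mean 423 ± 9.2, with no overlap between neighbours down to the vegetative apex with young leaves at 393 ± 8.5. The next 8 groups formed a run of overlapping neighbours down to the vegetative apex at 306 ± 12, and ap3-6 stood below it at 255 ± 29. ATG8H averaged 209 ± 26 in the internode, 109.9 ± 5.7 in the node, 33.3 ± 7.0 in the hypocotyl and 26.7 ± 8.9 in the vegetative apex with young leaves. In the other 10 groups ATG8H means lay between 4.87 and 12.1, close to the offset, and on the 30 apex arrays without young leaves its median was 8.52 and its highest value 17.3. It exceeded the 40th percentile of its own array on 3 of 3 internode and 3 of 3 node arrays, on 2 of 3 in both the hypocotyl and the vegetative apex with young leaves, and on none elsewhere. ATG8H therefore entered the fit of organs only through the groups where it was high, so its p-values against apices without young leaves are given but support nothing. A group with none of its 3 arrays above that percentile has only a bound, and folds against it are given as "at least": the other group's mean over, per array, the higher of the 40th percentile and the gene's own signal, with means taken of log2 signals.

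Across the 7 Col-0 organs all 4 genes passed the F test for any difference, with adjusted p between 8.87e-20 for ATG8F and 3.96e-14 for ATG8E. That test called 98.4% of the probe sets, so passing it sets no gene apart. The pairwise comparisons say more.

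The internode and node were first set against the Col-0 inflorescence apex, the growing tip of the same flowering stem. ATG8D, ATG8E and ATG8F were called higher in both stem samples, and ATG8H lay above background on every stem array and on no apex array. The ratio of mean signals was below 1.5 for ATG8D, and for ATG8H the bound alone was at least 9.20-fold in the internode and 4.85-fold in the node. Of all probe sets tested, 37.9% were called higher and 46.9% lower in the internode, and 36.4% higher and 46% lower in the node.

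ATG8H signals were 237, 188 and 202 in internodes and 103, 113 and 113 in nodes, against 10.2, 8.88 and 5.32 in Col-0 inflorescence apices. The stem arrays of ATG8H did not come near those of the apex. The gene was at least 9.20-fold higher in the internode (adjusted p = 1.88e-15) and at least 4.85-fold higher in the node (adjusted p = 5.20e-13). ATG8F, the brightest of the 4 probe sets, gave 1284, 1179 and 1269 in internodes and 901, 810.0 and 889 in nodes, against 339, 381 and 345 in Col-0 inflorescence apices. Again no array overlapped, and ATG8F was higher by 1.79 ± 0.06 in the internode (adjusted p = 1.60e-18) and by 1.27 ± 0.06 in the node (adjusted p = 2.35e-15).

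ATG8E gave 297, 266 and 285 in internodes and 149, 136 and 151 in nodes, against 70.3, 60.7 and 83.7 in Col-0 inflorescence apices. It was higher by 1.88 ± 0.11 in the internode (adjusted p = 4.06e-14) and by 0.96 ± 0.11 in the node (adjusted p = 1.78e-08), with no overlap of arrays. ATG8D gave 191, 168 and 174 in internodes and 191, 174 and 184 in nodes, against 129, 123 and 138 in Col-0 inflorescence apices. Its changes were the smallest of the 4 genes, 0.43 ± 0.07 in the internode (adjusted p = 3.72e-06) and 0.47 ± 0.07 in the node (adjusted p = 1.08e-06).

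The median of all probe sets was -0.13 in each of these comparisons. Scaling each array by its own median moved that median up by 0.22 for the internode and 0.15 for the node, and ATG8D, ATG8E and ATG8F were still called higher, with ATG8D at 0.68 in the internode and 0.64 in the node. With the mean of the 7 mutant apices, which lack the high dap signal, in place of Col-0, the internode changes were 0.68 for ATG8D, 2.27 for ATG8E and 1.87 for ATG8F. The node and the Col-0 inflorescence apex share the high dap signal, so their comparison lies within that set of arrays. Photosynthesis genes moved with these results. Their summed signal over the 4 of 6 listed genes with a probe set (PRK, SBPASE, RCA and LHCB4.2) was 8336 to 9843 in the internode and 6520 to 6653 in the node, against 2014 to 2122 in the Col-0 inflorescence apex, and IRX15 moved the same way. Their part in the ATG8 results was not tested.

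**Figure D2:**
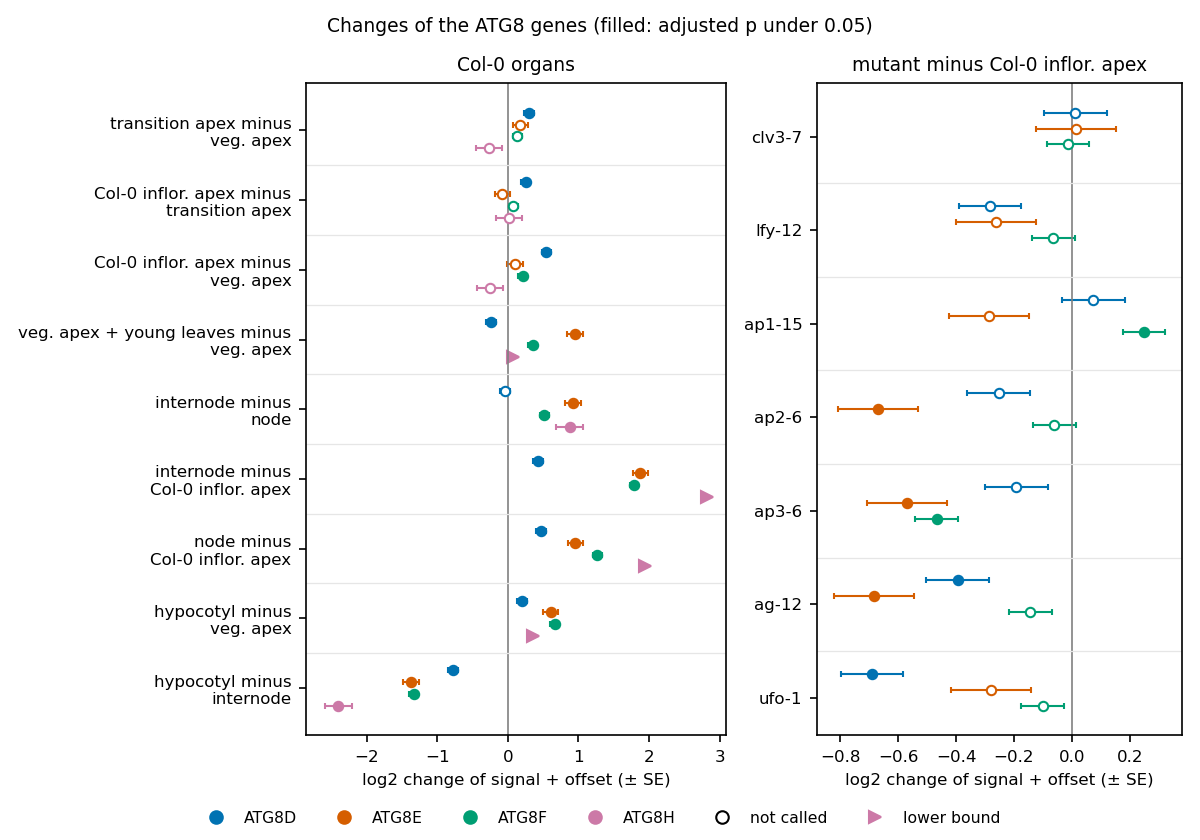
Log2 change of signal + offset with its standard error (x axis) of the 4 genes in 9 comparisons of Col-0 organs (left) and in 7 comparisons of a mutant with the Col-0 inflorescence apex (right, without ATG8H, which was not tested there); filled points were called, and triangles are lower bounds of ATG8H with no error bar. ATG8D is the open point near 0 in internode minus node, at -0.04, and the point left of 0 in the comparison with young leaves, at -0.24.

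Within the stem, the internode was compared with the node. ATG8E, ATG8F and ATG8H were higher in the internode, and ATG8D was not called. Of all probe sets 27.4% were called higher in the internode and 29.8% lower. ATG8E changed by 0.92 ± 0.11 (adjusted p = 1.04e-07), ATG8H by 0.88 ± 0.19 (adjusted p = 0.000309) and ATG8F by 0.52 ± 0.06 (adjusted p = 1.62e-07), and for each of them the internode arrays given above lay above the node arrays. ATG8D differed by -0.04 ± 0.07 (adjusted p = 0.638), and its internode arrays interleaved with its node arrays.

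The difference between genes was tested on its own. ATG8D changed less than ATG8E by 0.96, less than ATG8H by 0.92 and less than ATG8F by 0.56, and in each pair the per-array differences of the 3 internode arrays did not overlap with those of the 3 node arrays. The exact permutation p was 0.10 in each of these 3 pairs, two-sided, which is the smallest that 3 arrays against 3 can give. ATG8D was not alone in this. The change of ATG8E minus that of ATG8F was 0.40, and that of ATG8F minus that of ATG8H was -0.36. Arrays did not overlap in either pair (exact permutation p = 0.10 for each). ATG8E and ATG8H differed by 0.05 in their change (exact permutation p = 0.70). The node arrays carry the high dap signal and the internode arrays do not, so that difference in preparation and the difference in organ cannot be told apart here. The 4 photosynthesis genes had 3 called higher and none lower in the internode, at a median change of 0.41, and IRX15 was higher by 1.18 ± 0.22 (adjusted p = 5.41e-05).

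The hypocotyl, the seedling stem below the cotyledons, was compared with the vegetative apex and with the internode. ATG8D, ATG8E and ATG8F were called higher in the hypocotyl than in the vegetative apex, and all 4 genes were lower than in the internode. In the first comparison 35.4% of probe sets were called higher and 38.3% lower, and in the second 41.5% were called higher and 34.4% lower.

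ATG8F gave 439, 536 and 496 in hypocotyls, against 295, 318 and 305 in vegetative apices, with no overlap and a change of 0.66 ± 0.06 (adjusted p = 1.23e-09). ATG8E gave 96.1, 98.3 and 119.6 in hypocotyls, against 68.6, 69.6 and 59.6 in vegetative apices, a change of 0.60 ± 0.11 (adjusted p = 2.57e-05). ATG8H gave 25.4, 38.5 and 36.1 in hypocotyls, against 17.3, 10.8 and 6.52 in vegetative apices, so it was at least 1.36-fold higher (adjusted p = 1.18e-05). In these 3 genes, and in ATG8D, every hypocotyl array lay above every vegetative apex array. ATG8D gave 98.8, 106.6 and 95.2 in hypocotyls, against 85.8, 92.8 and 80.8 in vegetative apices, and its change of 0.20 ± 0.07 was the smallest (adjusted p = 0.0135).

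The ATG8D call was lost without replicate 2 of the hypocotyl (0.15, adjusted p = 0.0751), without replicate 3 of the vegetative apex (0.15, adjusted p = 0.0747), in a fit of all 42 arrays (0.20, adjusted p = 0.0630) and under scaling by each array's median (0.10, adjusted p = 0.179). The log2 ratio of 3′ to 5′ signal of control transcripts, a sign of RNA quality, was 0.81 ± 0.15 in hypocotyls and 0.40 ± 0.08 in vegetative apices (SD, n = 3 each). With that ratio in the fit only ATG8F was called, at 0.58 (adjusted p = 0.000270), while ATG8D was at 0.15 (adjusted p = 0.366), ATG8E at 0.46 (adjusted p = 0.0679) and ATG8H not called (adjusted p = 0.0830). Of the 4 photosynthesis genes 2 were lower in the hypocotyl and none was higher.

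Against the internode, ATG8H was lower in the hypocotyl by a log2 change of -2.40 ± 0.19 (adjusted p = 2.47e-11), ATG8E by -1.37 ± 0.11 (adjusted p = 3.45e-11), ATG8F by -1.33 ± 0.06 (adjusted p = 1.33e-15) and ATG8D by -0.78 ± 0.07 (adjusted p = 2.72e-10). No hypocotyl array overlapped with an internode array in any of the 4. Scaling by array medians shifted the median of all probe sets by -0.25 and the share of higher calls among all calls to 38.5%, against 54.7% as deposited. All 4 genes remained lower with it, by between -1.05 for ATG8D and -2.66 for ATG8H. The 4 photosynthesis genes were all lower in the hypocotyl as well, at a median of -1.28, and their part was not tested.

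The vegetative apex with young leaves was compared with the vegetative apex without them. ATG8E and ATG8F were higher where leaves were included, and ATG8D was lower. Of all probe sets 18.8% were called higher and 29.5% lower.

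ATG8E gave 142, 121 and 142 with young leaves, against 68.6, 69.6 and 59.6 without, a change of 0.95 ± 0.11 (adjusted p = 1.32e-07). ATG8F gave 399.8, 395 and 383 with young leaves, against 295, 318 and 305 without, a change of 0.35 ± 0.06 (adjusted p = 5.94e-05). In both genes the groups did not overlap. ATG8H gave 33.5, 16.6 and 30.0 with young leaves, against 17.3, 10.8 and 6.52 without, with an overlap of 1 array in each group, and its bound was at least 1.06-fold (adjusted p = 0.000767).

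ATG8D ran the other way. Its signals were 69.0, 72.1 and 75.4 with young leaves, against 85.8, 92.8 and 80.8 without, again with no overlap, and its change was -0.24 ± 0.07 (adjusted p = 0.00680). With array medians as the scale the ATG8D change was -0.16 (adjusted p = 0.0607), and higher calls made up 52.2% of all calls, against 38.9% as deposited. Per-array differences between ATG8D and ATG8E or ATG8F did not overlap between the 2 groups of arrays, and the change of ATG8D lay below that of ATG8E by 1.19 and below that of ATG8F by 0.59 (exact permutation p = 0.10 for each, the smallest possible). The change of ATG8E lay above that of ATG8F by 0.60, also without overlap (exact permutation p = 0.10). All 4 photosynthesis genes were higher with young leaves, with summed signals of 7518 to 8374 against 3807 to 3865 without, and their part in the changes was not tested.

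The vegetative, transition and inflorescence apices of Col-0 form a series through the switch to flowering. ATG8D rose at each step of it with the Col-0 inflorescence arrays, and only at the first step with the mutant apices in their place. ATG8F was called over the whole series only, and ATG8E and ATG8H were not called with the Col-0 arrays. From the vegetative to the transition apex 30.6% of probe sets were called higher and 23.1% lower, from the transition to the inflorescence apex 15.7% and 16.5%, and over the whole series 34.1% and 26.6%.

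ATG8D gave 85.8, 92.8 and 80.8 in vegetative apices, 106.6, 110.7 and 106.1 in transition apices and 129, 123 and 138 in inflorescence apices. The 3 stages did not overlap. The transition apex was higher than the vegetative apex by 0.30 ± 0.07 (adjusted p = 0.000915), the inflorescence apex higher than the transition apex by 0.25 ± 0.07 (adjusted p = 0.00690) and higher than the vegetative apex by 0.55 ± 0.07 (adjusted p = 2.94e-07). The second step rests on the Col-0 inflorescence arrays, which stand apart by their dap signal. With the mean of the 7 mutant apices in their place it was 0.0048 (adjusted p = 0.967), while the change over the whole series was 0.30 (adjusted p = 0.000378). With the RNA ratio in the fit the second step was 0.22 (adjusted p = 0.132).

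ATG8F gave 295, 318 and 305 in vegetative apices, 339, 325 and 344 in transition apices and 339, 381 and 345 in inflorescence apices. The inflorescence apex was higher than the vegetative apex by 0.21 ± 0.06 (adjusted p = 0.00610), while neither step alone was called (0.13, adjusted p = 0.0780, and 0.08, adjusted p = 0.385). That call was lost without replicate 2 of the inflorescence apex (0.16, adjusted p = 0.0514) and under scaling by array medians (0.14, adjusted p = 0.0678). The same call was also lost with the RNA ratio in the fit (0.14, adjusted p = 0.299). ATG8E gave 68.6, 69.6 and 59.6, then 74.3, 90.0 and 64.1, then 70.3, 60.7 and 83.7 along the series, with overlap throughout and no call in its 3 comparisons. When the mean of the 7 mutant apices stood for the last stage, ATG8E was instead called lower, by -0.47 against the transition apex (adjusted p = 0.000148) and by -0.29 against the vegetative apex (adjusted p = 0.00840). ATG8H lay between 5.32 and 17.3 on these 9 arrays, near the offset, and was not called. Photosynthesis genes were lower in both later stages than in the vegetative apex, 4 of 4 in each.

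The mutant inflorescence apices were compared with the Col-0 inflorescence apex in a fit of those 24 arrays. ATG8D, ATG8E and ATG8F were tested, and ATG8H was not, since none of its arrays passed the filter in these groups. Over the 8 genotypes all 3 passed the F test, with adjusted p of 1.25e-06 for ATG8F, 1.29e-05 for ATG8D and 0.000136 for ATG8E, where 70.1% of all probe sets were called. ATG8D was lower in ag-12 and ufo-1, ATG8E was lower in ap2-6, ap3-6 and ag-12, and ATG8F was lower in ap3-6 and higher in ap1-15. Limma called none in clv3-7 or lfy-12, where the counts at an unadjusted p under 0.05 were 0 and 1. All 7 comparisons share the same 3 Col-0 arrays, which stand apart by their dap signal, so that preparation and the genotype cannot be told apart within them.

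ATG8D was lower in ufo-1. The UFO gene codes for an F-box protein that acts with LFY in floral identity. ATG8D gave 87.9, 64.8 and 81.3 in ufo-1, against 129, 123 and 138 in Col-0, with no overlap and a change of -0.69 ± 0.11 (adjusted p = 4.13e-05), and with the mean of the other 6 mutants in place of Col-0 it was -0.52 (adjusted p = 4.24e-05). Of all probe sets 9.40% were called higher and 9.38% lower in ufo-1. ATG8E and ATG8F were not called there, at -0.28 (adjusted p = 0.169) and -0.10 (adjusted p = 0.373). The changes of ATG8D lay below those of ATG8E by 0.41 and below those of ATG8F by 0.59, with no overlap of the arrays (exact permutation p = 0.10 for each, the smallest possible).

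In ag-12, a mutant of the gene for a regulator of stamen and carpel identity, ATG8E and ATG8D were lower. ATG8E gave 53.1, 36.0 and 36.4 in ag-12, against 70.3, 60.7 and 83.7 in Col-0, a change of -0.68 ± 0.14 (adjusted p = 0.000553). ATG8D gave 111, 82.5 and 99.0 in ag-12, against 129, 123 and 138 in Col-0, a change of -0.39 ± 0.11 (adjusted p = 0.00810). Neither gene overlapped between the groups, and 12.4% of all probe sets were called higher and 14.4% lower. Without replicate 2 of ag-12 the ATG8D change was -0.29 and not called (adjusted p = 0.0722), while that of ATG8F became called at -0.22 (adjusted p = 0.0389). With all replicates ATG8F was at -0.14 (adjusted p = 0.156). Against the mean of the other 6 mutants, ATG8D in ag-12 was at -0.17 and not called (adjusted p = 0.123), and ATG8E was at -0.34 (adjusted p = 0.0161).

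ATG8E was also lower in the mutants of AP2 and AP3, regulators of floral organ identity. It gave 42.3, 34.3 and 49.8 in ap2-6, against 70.3, 60.7 and 83.7 in Col-0, a change of -0.67 ± 0.14 (adjusted p = 0.000869), where 10.2% of probe sets were called higher and 10.5% lower. In ap3-6 it gave 42.8, 48.9 and 44.2, against the same Col-0 arrays, a change of -0.57 ± 0.14 (adjusted p = 0.00340), where 11.3% were called higher and 12.5% lower. No array of either mutant overlapped with Col-0. ATG8F was lower in ap3-6 too, at 242, 235 and 289 in ap3-6, against 339, 381 and 345 in Col-0, a change of -0.47 ± 0.07 (adjusted p = 2.95e-05). With the mean of the other 6 mutants in place of Col-0, ATG8E in ap3-6 was at -0.21 and not called (adjusted p = 0.154), ATG8E in ap2-6 was at -0.32 (adjusted p = 0.0308) and ATG8F in ap3-6 at -0.44 (adjusted p = 9.29e-07).

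Against Col-0, ATG8F in ap1-15 was the sole higher call of the 3 tested genes in the mutants. It gave 427, 429.6 and 412 in ap1-15, a mutant in a regulator of floral meristem identity, against 339, 381 and 345 in Col-0, a change of 0.25 ± 0.07 (adjusted p = 0.0125) without overlap. There 14% of probe sets were called higher and 13.5% lower. The call was lost without replicate 1 of Col-0 (0.22, adjusted p = 0.0646) and with the RNA ratio in the fit (0.22, adjusted p = 0.0777). With the mean of the other 6 mutants in place of Col-0, ATG8F was at 0.39 (adjusted p = 3.48e-06) and ATG8D was called higher as well, at 0.37 (adjusted p = 0.000833). In clv3-7, where 10.4% of probe sets were called higher and 8.69% lower, the changes of ATG8D, ATG8E and ATG8F lay between -0.01 and 0.01. Set against the mean of the other 6 mutants, ATG8D in clv3-7 was called higher at 0.30 (adjusted p = 0.00620) and ATG8E at 0.47 (adjusted p = 0.00110). In lfy-12, where 13.3% were called higher and 13.7% lower, ATG8D was at -0.28 ± 0.11 (adjusted p = 0.0540), ATG8E at -0.26 ± 0.14 (adjusted p = 0.173) and ATG8F at -0.06 ± 0.07 (adjusted p = 0.573). ATG8D became called in 5 of 18 alternatives, among them without replicate 2 of lfy-12 (-0.34, adjusted p = 0.0400). A fit of all 42 arrays was another (-0.28, adjusted p = 0.0241). Over the alternatives the ATG8D change ran from -0.34 to -0.04.

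Scaling by array medians raised the share of higher calls among all calls to 77.6% in ufo-1 (50.04% as deposited), 71.8% in ap3-6 (47.7%), 62.8% in ap1-15 (51.0%) and 59.1% in ag-12 (46.3%), and no call of ATG8D, ATG8E or ATG8F in these mutants changed. Beside these changes, the summed signal of the 4 photosynthesis genes was 2470 to 2626 in ufo-1, 3153 to 3241 in ag-12, 2195 to 2265 in ap3-6, 2018 to 2144 in ap2-6 and 1529 to 1615 in ap1-15, against 2014 to 2122 in Col-0. The summed signal of the 3 of 5 anther genes with a probe set was 140 to 143 in ap2-6, 38.0 to 42.7 in ap1-15, 25.6 to 27.2 in ufo-1, 4.27 to 13.6 in ag-12 and 2.44 to 8.46 in ap3-6, against 29.3 to 36.9 in Col-0. In lfy-12, where no tested ATG8 gene of the 4 was called, the photosynthesis sum was 3592 to 3716 and the anther sum 2.53 to 11.4. In clv3-7, also without a call, they were 1922 to 1956 and 24.1 to 28.5. The part of these organs in the ATG8 changes was not tested. ATG8H signals lay between 1.46 and 12.7 on all 21 mutant arrays, and in a fit without the filter its adjusted p was between 0.237 and 0.989.

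Over the 14 group means, Pearson's r between the genes was 0.93 for ATG8F and ATG8H, 0.90 for ATG8E and ATG8H and 0.88 for ATG8E and ATG8F. For ATG8D it was 0.69 with ATG8F, 0.56 with ATG8H and 0.44 with ATG8E. These values describe 14 points from shared arrays. Spearman's rho, in which the high internode and node values count only by their rank, was 0.34, 0.64 and 0.69 for the first 3 pairs in that order, and 0.51, 0.09 and 0.27 for the pairs of ATG8D. The 10 groups in which ATG8H did not exceed background have no order among themselves, so rho with ATG8H rests in part on such values. With the other ATG8 genes, named below, Pearson's r of ATG8D was 0.87 for ATG8C, 0.83 for ATG8A, 0.80 for ATG8B, 0.77 for ATG8I and 0.68 for ATG8G. That of ATG8F ran from 0.38 for ATG8B to 0.92 for ATG8C and for ATG8I.

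The other 5 ATG8 genes with a probe set were ATG8A, ATG8B, ATG8C, ATG8G and ATG8I. The annotation lists ATG8I, AT3G15580, under the older symbol APG8H, which is not ATG8H. All 5 were higher in the internode than in the Col-0 inflorescence apex, by 0.56 to 1.49, beside 37.9% of all probe sets called higher and 46.9% lower. They were also all higher in the internode than in the node, by 0.35 to 0.64, beside 27.4% called higher and 29.8% lower. The median change in the internode against the Col-0 inflorescence apex was 1.83 for ATG8D, ATG8E, ATG8F and ATG8H, also with ATG8H at its bound, and 1.11 for the other 5, against -0.13 for all probe sets. Against the node it was 0.70 for the 4 and 0.44 for the 5, and -0.01 for all probe sets. The 4 were chosen with earlier results of these data known, so their larger medians do not set them apart from the 5. ATG8D was the sole member of the 9 without a call between internode and node.

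**Figure D3:**
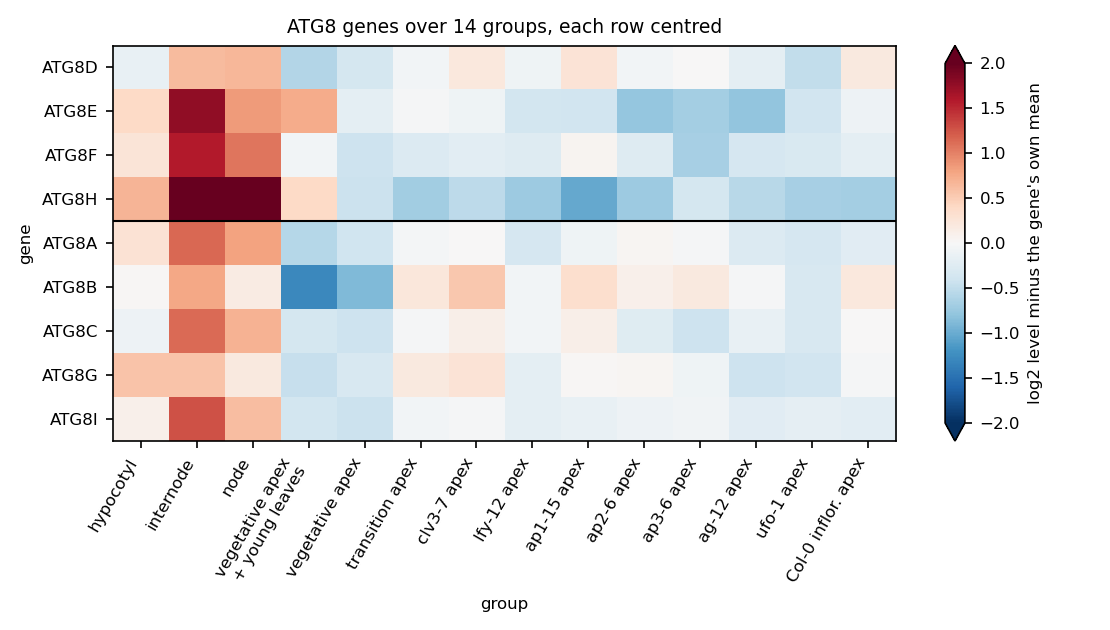
Log2 level of the 9 ATG8 genes (rows) in the 14 groups (columns), each row centred on its own mean so that rows cannot be compared in level; red is above and blue below that mean, and values past 2 in size share the end colour. The internode column is red in every row, and the darkest cells are ATG8H in internode and node.

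The family divided more in the apices. From the vegetative to the transition apex all 5 others were called higher, by 0.37 to 1.11 with ATG8B at the top. ATG8D was called higher too, while ATG8E, ATG8F and ATG8H were not, beside 30.6% of all probe sets higher and 23.1% lower. From the transition to the inflorescence apex ATG8G alone of the 5 was called, at -0.23 (adjusted p = 0.0344). There 15.7% of all probe sets were called higher and 16.5% lower. With young leaves ATG8B was lower by -0.41 (adjusted p = 0.00210), as was ATG8D, and the other 4 were not called. There 18.8% of all probe sets were called higher and 29.5% lower. In the hypocotyl all 5 were higher than in the vegetative apex, by 0.32 to 0.92, beside 35.4% of all probe sets called higher and 38.3% lower. Against the internode 4 of the 5 were lower in the hypocotyl, where 41.5% of all probe sets were called higher and 34.4% lower. ATG8G was at 0.01 (adjusted p = 0.934), its hypocotyl mean being the highest of its 14 groups. In ufo-1, where ATG8D was lower, ATG8B (-0.54, adjusted p = 0.00210), ATG8G (-0.35, adjusted p = 0.0178) and ATG8C (-0.34, adjusted p = 0.00150) were lower too. The shares of all probe sets called in ufo-1 were 9.40% higher and 9.38% lower. In ap3-6, where ATG8E and ATG8F were lower, ATG8C was at -0.43 (adjusted p = 7.32e-05) and the other 4 were not called. The shares in ap3-6 were 11.3% higher and 12.5% lower. In ag-12 ATG8G was lower (-0.38, adjusted p = 0.0071), beside 12.4% higher and 14.4% lower. In ap2-6 ATG8C was lower (-0.25, adjusted p = 0.0136), beside 10.2% and 10.5%. ATG8G was higher in clv3-7 (0.31, adjusted p = 0.0363), beside 10.4% and 8.69%. No other gene of the 5 was called in these mutants. None was called in lfy-12 (13.3% and 13.7%) or ap1-15 (14% and 13.5%). The clv3-7 call was lost without the filter and the ap2-6 call with the RNA ratio in the fit.

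Other steps of the pathway were represented by 10 measured loci of the lists for ATG8 conjugation and for initiation and membrane growth, and 9 of them were tested. ATG3, the enzyme that joins ATG8 to lipid, gave 282, 246 and 273 in internodes, against 187, 180 and 186 in nodes and 167, 177 and 165 in Col-0 inflorescence apices. The internode arrays of ATG3 lay above both other groups. It was higher by 0.51 ± 0.07 than in the node (adjusted p = 1.49e-06) and by 0.63 ± 0.07 than in the Col-0 inflorescence apex (adjusted p = 1.79e-08). ATG101, a subunit of the kinase complex that starts autophagy, was higher by 0.41 ± 0.12 (adjusted p = 0.00410) and 0.82 ± 0.12 (adjusted p = 6.08e-07) in the same comparisons.

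Of the 9 tested loci, 7 were higher in the internode than in the node and none lower, at a median of 0.37, where 27.4% of all probe sets were called higher and 29.8% lower. Against the Col-0 inflorescence apex 6 were higher and none lower, at a median of 0.55, where 37.9% were called higher and 46.9% lower. In the node against that apex 4 were higher and 2 lower, at a median of 0.11, where 36.4% were called higher and 46% lower. In the hypocotyl 5 were higher than in the vegetative apex and 1, ATG3, was lower (-0.27 ± 0.07, adjusted p = 0.00190), beside 35.4% and 38.3% of all probe sets. With young leaves limma called none of the 9 loci, and none had an unadjusted p under 0.05, beside 18.8% of all probe sets called higher and 29.5% lower. In ap3-6, ag-12 and ufo-1 limma called none of the 9 either, and at an unadjusted p under 0.05 there was 1 in ap3-6, 1 in ag-12 and 0 in ufo-1. Of all probe sets the shares called higher and lower were 11.3% and 12.5% in ap3-6, 12.4% and 14.4% in ag-12 and 9.40% and 9.38% in ufo-1. In clv3-7 limma called 2 of the 9 higher and none lower, beside 10.4% and 8.69% of all probe sets. In ap2-6 it called 1 higher and none lower, beside 10.2% and 10.5%. It called none in lfy-12, beside 13.3% and 13.7%, and none in ap1-15, beside 14% and 13.5%. Under scaling by array medians 1 was called in ap3-6 and 1 in ap1-15, and with the RNA ratio in the fit 1 in clv3-7. Quantile normalization, which gives all arrays the same distribution of signals, led to 1 with young leaves and 1 in clv3-7. With the RNA ratio 3 were called in the node against the Col-0 inflorescence apex and 3 in the hypocotyl against the vegetative apex. The node count was also 3 with the mean of the 7 mutants in place of Col-0. Against the mean of the other 6 mutants 1 was called in ag-12 and 1 in ufo-1.

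**Figure D4:**
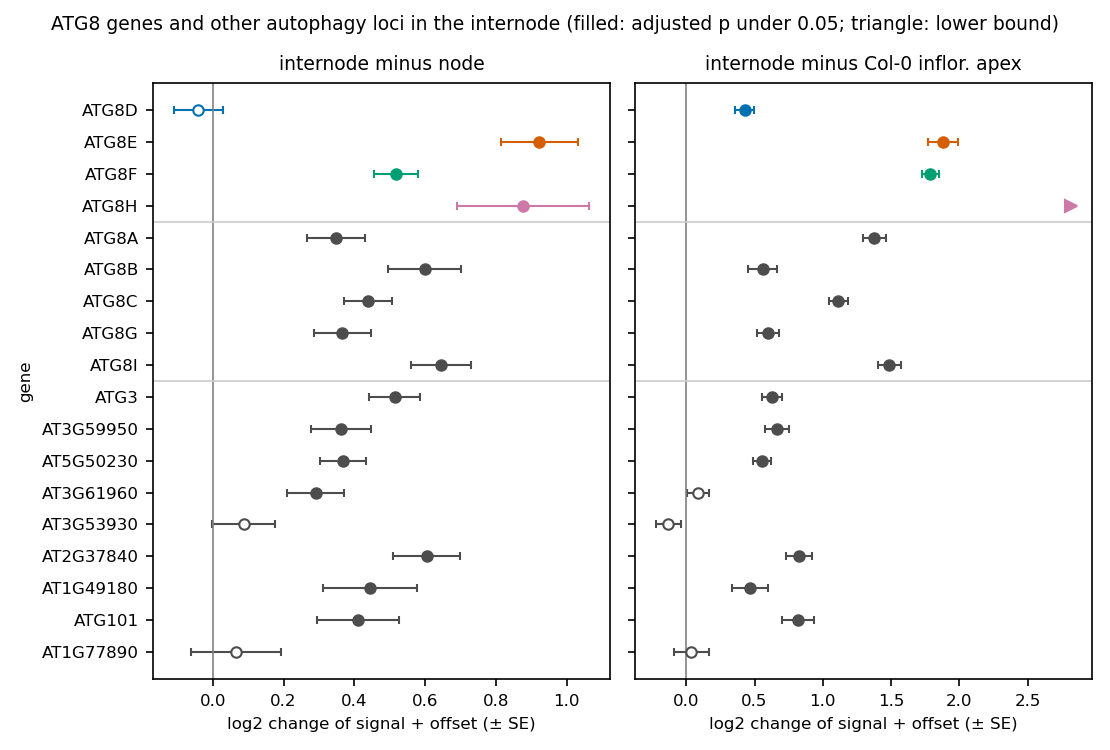
Log2 change with its standard error (x axis) in the internode against the node (left) and against the Col-0 inflorescence apex (right) for the 4 ATG8 genes (coloured, top), the other 5 ATG8 genes and 9 other autophagy loci (grey); filled points were called, and the triangle is a lower bound. Nearly all points lie right of 0, with ATG8D at -0.04 on the left and ATG8H furthest right, at a bound of 2.82, on the right.

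Genes tied to nutrient sensing and leaf ageing were few on the array lists. RAPTOR1, a partner of the growth kinase TOR, was not called in the internode against either the node (-0.12, adjusted p = 0.239) or the Col-0 inflorescence apex (0.08, adjusted p = 0.362). WRKY53, a transcription factor gene of leaf senescence, was higher in the internode by 0.46 ± 0.12 against the node (adjusted p = 0.00270) and at least 3.34-fold higher than in the Col-0 inflorescence apex, where it lay below the 40th percentile on all 3 arrays (adjusted p = 3.41e-13). Its signals were 73.8, 69.8 and 83.8 in internodes, 50.9, 53.1 and 53.9 in nodes and 16.3, 16.6 and 9.60 in Col-0 inflorescence apices. SAG101, the other measured senescence gene, gave 24.1, 16.9 and 26.9 in internodes, 25.4, 25.9 and 21.1 in nodes and 18.5, 14.4 and 11.4 in Col-0 inflorescence apices, with overlap of the internode arrays with both other groups. Its internode change was -0.08 ± 0.16 against the node (adjusted p = 0.701), and the apex again had only a bound, so no fold is given there (adjusted p = 0.0187). No listed gene of the response to sugar starvation had an annotated probe set.

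The genes most alike in pattern were sought among 8968 probe sets of 1 annotated gene each, by Pearson's r of the 14 group means. For ATG8H the closest was AT1G53560 at 0.99, for ATG8F AT1G80510 at 0.98 with PRA1.E also at 0.98, for ATG8E AT4G30690 at 0.97 and for ATG8D AT4G32440 at 0.94. By Spearman's rho the same genes ranked in place 60 for ATG8F (AT1G80510), 5 for ATG8E and 4 for ATG8D. By Pearson's r over the 42 arrays they ranked in place 22, 1 and 149, and AT4G32440 was then at 0.76 with ATG8D. First for ATG8D over the 42 arrays was AT3G22540, at 0.88. Most ATG8H groups lie at background and have no order, so no rank is given for it.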

How the data were processed

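Biotin-labelled total RNA of 42 shoot and stem samples was measured on Affymetrix arrays of 1 colour. The deposited values are linear signal intensities per probe set, made with MAS5 per the submitters' processing notes; no source used here gives its version or settings. A mean trimmed by 2% from either end was 100.01 on all arrays. No other normalization was applied. The number of arrays, 3 per group, limits the precision.

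An offset of 8.01 (the 25th percentile of an array, as a median over all arrays) was added before log2 was taken. The 64 control probe sets were left out, and probe sets were kept with at least 3 arrays past their array's own 40th percentile. The 21 Col-0 organ arrays (16039 probe sets) and the 24 inflorescence apex arrays (14630 probe sets) were fitted apart with limma 3.58.1 under R 4.3.3 (lmFit, eBayes with trend), two-sided, and the Benjamini-Hochberg adjustment covered all probe sets kept. The fit was tested on simulated data. Exact permutation tests used scipy 1.17.1, and matplotlib 3.10.9 (Python 3.11.15) drew the figures. Gene names and chromosomes came from the platform annotation and from RefSeq gene tables.

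The named genes were all 4 probe sets of the ATG8 genes, every measured gene of the autophagy lists, up to 3 called genes of the nutrient, starvation and senescence lists and the 5 most alike probe sets per gene; RAPTOR1, not called in the comparisons given, was named after its values were seen, and so was SAG101 against the node. Of 89 list entries 30 had a probe set. Loci whose names the tables do not give were left without a name or role. The members and lists were chosen with earlier results of these data known. Same-lettered replicates were not paired: no comparison had all 3 correlations of same-lettered deviations over 0.1. Alternatives covered scaling, offset, filter, variance, arrays in the fit, replicates, RNA ratio and reference group. Planned descriptions of promoters and proteins were not made.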

Additional observations from a re-analysis of the deposited data

How the results depend on the processing

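Of 34 called values of the 4 genes, 25 kept their direction and call under all alternatives run, and 576 of 594 alternative values did so; none reversed. Of 23 values not called, 14 stayed uncalled with all alternatives, and a change of sign between values called in neither setting was not counted. One value reversed: ATG8E in the inflorescence against the vegetative apex was at -0.29 with the mean of the 7 mutants in place of Col-0 and at 0.10 with Col-0. The counts of genes called, ATG8H included, moved by over 1.5 times as follows, and the cause was not tested. With the RNA ratio as covariate the counts were 0 for inflorescence against transition apex, 1 for inflorescence against vegetative apex, 1 for hypocotyl against vegetative apex and 0 for ap1-15. Scaling by array medians gave 1 for inflorescence against vegetative apex. A fit of only the 2 groups compared gave 2 for transition against vegetative apex and 1 for lfy-12. For lfy-12 the count was also 1 with the offset multiplied by 4, with the filter at the 60th percentile and with all 42 arrays in 1 fit. With the mean of the other 6 mutants in place of Col-0 the counts were 2 in clv3-7, 2 in ap1-15, 1 in ap3-6 and 1 in ag-12. Leaving out each replicate in turn gave 1 to 2 for transition against vegetative apex, 1 to 2 for inflorescence against vegetative apex, 0 to 1 in lfy-12 and 0 to 1 in ap1-15. The replicate block changed no call of the 4 genes, with 3 called between internode and node as without it. Signals of ATG8H outside stem, hypocotyl and young leaves lie near background, so its differences among apices could not be resolved.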
